A study of Oreochromis niloticus with 6 samples.

Results

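The TRIM (tripartite motif) genes of Nile tilapia (Oreochromis niloticus) gill are described here. The finTRIM (ftr) and bloodthirsty (btr) genes, branches of the family that expanded in bony fish, are included. Members were the rows of the gene table whose symbol starts with trim, ftr or btr followed by a digit, which gave 60 rows of 40538, with 48 different symbols. The fish belonged to GIFT, a strain bred for farming, and RNA-seq was run on gill, so the groups share strain and tissue and no genetic change is labelled in either. Of the 6 libraries, 3 were labelled hypoxia stress, from tanks whose dissolved oxygen was brought down with nitrogen gas over 30 min to a level near 1.0 mg/L, and 3 were labelled control, from tanks at 5 mg/L. Gills of both groups were taken at 96 h. The labels describe the layout in more than one way (3 tanks per group with 15 fish each, or 4 replicates per group with 30 fish per tank), give no age, and do not say which fish or tank a library came from or whether fish were pooled. The p-values below therefore measure only the spread between these samples, which may be technical. The design sets low-oxygen exposure against normal oxygen in 1 tissue at 1 time. Because egln3, a prolyl hydroxylase gene known to be induced by hypoxia-inducible factor, stood at 3.25 ± 0.699 FPKM in the libraries labelled hypoxia and 69.8 ± 37.04 FPKM in those labelled control (SD, n = 3 each), against the labels, the groups are called by their labels throughout and every direction rests on them.

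TRIM proteins carry a RING finger, which transfers ubiquitin to target proteins, followed by B-box zinc fingers and a coiled coil, and they differ mainly in their C-terminal domain. Many mammalian members with a PRY-SPRY domain at that end act in antiviral defence, either by binding viral proteins or by tuning the RIG-I-like receptor and interferon pathways. The finTRIM genes form a large fish-specific group first found among virus-induced genes of rainbow trout leukocytes, and the bloodthirsty genes are named after a zebrafish gene needed to make red blood cells. The gill is a surface exposed to waterborne pathogens. In zebrafish, ftr83 is expressed in the gill and its overexpression raises type I interferon.

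Expression was given as FPKM, fragments scaled to transcript length and library size, which sets levels of different genes on a scale per length. Summed FPKM ran from 438405 to 483691 per library. The number of sequenced fragments is unknown. Relative depth was read from values under 0.15 FPKM, with hypoxia replicate 1 set to 1. It was 1.06 and 1.08 in hypoxia replicates 2 and 3, and 1.21, 1.09 and 1.21 in control replicates 1, 2 and 3. At most 1 non-zero value was identical between any pair of libraries. Of the gill epithelial genes, the keratin krt4 was at 926 to 1977 FPKM over the libraries, the ammonia channel gene rhbg at 142 to 295 FPKM and the main row of the adhesion gene epcam (MSTRG.18716) at 189 to 441 FPKM. The summed level of that list over 23 rows, led by krt4, was 3084 to 4044 FPKM in the libraries labelled hypoxia and 2710 to 3073 FPKM in those labelled control, while 10 of its 20 tested rows had a positive and 10 a negative change (median 0.02). In the ionocyte part of that list cftr was at or near 0, with 1.17 FPKM as its highest value. Leukocyte marker genes differed between the groups, as given beside the finTRIM results.

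The family ranged from genes listed at 0 in most libraries to abundant ones, and its top ranks held several fish-specific genes. ftr83 led with a mean of 94.3 FPKM over the 6 libraries, a level above that of 98.1% of all tested rows. It was followed by btr12 at 33.3 FPKM, trim35-28 (MSTRG.30018) at 25.99 FPKM, btr30 at 25.7 FPKM and trim8b (MSTRG.5234) at 19.3 FPKM. Of the 60 rows, 12 had a mean of at least 10 FPKM, 26 lay between 1 and 10 FPKM, and 22 lay below 1 FPKM. The lowest were trim63a, trim9, trim110 and TRIM67, with means below 0.1 FPKM, as was trim71.

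**Figure D1:**
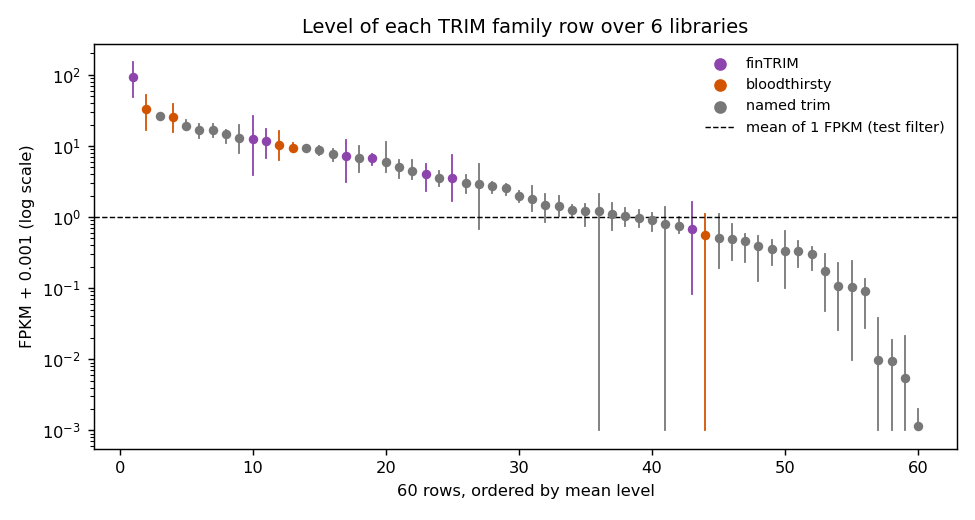
Mean level (point) and range (line) of each of the 60 rows over the 6 libraries, on a log axis of FPKM + 0.001, in order of mean level. The finTRIM gene ftr83 stands at the top, and 22 rows lie under the dashed line at a mean of 1 FPKM below which rows were not tested.

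Some of these rows share a symbol. StringTie identifiers (MSTRG, loci assembled from the reads) named 53 members and Ensembl identifiers 7. Of the symbols, 10 had more than 1 row and together made up 22 rows, most of them with consecutive locus numbers such as the 3 rows of trim25 and the 3 rows of trim47. Of all members, 17 rows held no Ensembl transcript. Whether rows of 1 symbol are pieces of a gene or separate copies was not tested. In both trim25 and trim8b, 2 rows held Ensembl transcripts of their own. Near-identical copies can share reads, so single values of such loci are uncertain.

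Across the family, 5 members fell in the libraries labelled hypoxia and none rose, and all 5 were finTRIM or bloodthirsty genes. A row was tested with limma on log2(FPKM + 1) where its mean over the 6 libraries was at least 1 FPKM, and it was called at a Benjamini-Hochberg adjusted p under 0.05 over all 25111 such rows. This left 38 members tested and 22 not tested. Of all tested rows 6.77% were called, 829 lower (3.30%) and 870 higher (3.46%). This split was 942 lower and 593 higher on the TPM scale and 1029 lower and 700 higher after median-of-ratios scaling. The 5 lower members were ftr86, ftr83, ftr82, btr30 and btr12. Of the 11 tested finTRIM and bloodthirsty rows 5 fell, and of the 27 tested rows named trim none was called in either direction, although 2 of them were higher at an unadjusted p under 0.05. Over all tested members 3 were higher and 6 lower at that unadjusted level, which 25.4% of all tested rows passed. The difference between the finTRIM and bloodthirsty rows and the rows named trim was not tested. The rows named trim also hold numbered trim35 genes (trim35-12, trim35-13, trim35-28 and trim35-30). This split by name therefore need not set fish-expanded genes against the others. The tested trim35 rows had log2 changes of -0.18 and 0.35 (trim35-28, MSTRG.30018 and MSTRG.30019), 0.17 (trim35-12) and 0.05 (trim35-30).

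The median log2 change of the 38 tested members was 0.04, beside a median of 0.05 over all tested rows. Within the family the finTRIM and bloodthirsty rows had a median of -0.89 and the rows named trim a median of 0.07. The groups did not overlap in 11 of the 38 tested members, whereas 33.2% of all tested rows had groups that lay apart. The summed level of the 13 finTRIM and bloodthirsty rows was 131 to 174 FPKM in the libraries labelled hypoxia and 265 to 326 FPKM in those labelled control. This sum was led by ftr83, with means of 57.0 FPKM in the libraries labelled hypoxia and 132 FPKM in those labelled control. The 47 rows named trim summed to 191 to 199 FPKM in the libraries labelled hypoxia and 174 to 186 FPKM in those labelled control. The sum over all rows of the table was higher in the libraries labelled hypoxia too, at 466826 to 483691 FPKM against 438405 to 455738 FPKM. The number of lower members was 1 without hypoxia replicate 1, hypoxia replicate 3 or control replicate 3, 2 without hypoxia replicate 2 or control replicate 2, and 3 without control replicate 1.

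**Figure D2:**
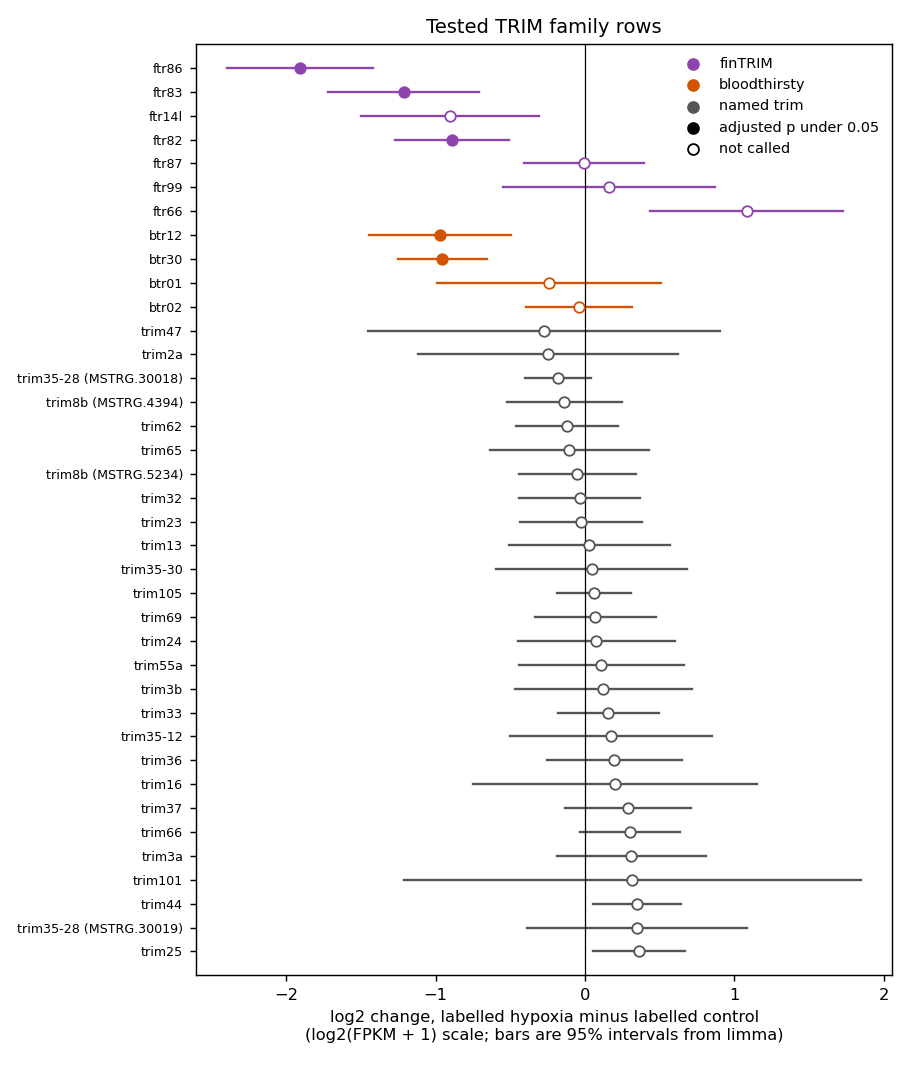
Log2 change (labelled hypoxia minus labelled control, log2(FPKM + 1) scale) of the 38 tested rows with 95% intervals from limma, grouped into finTRIM, bloodthirsty and named trim. Filled points are the 5 rows with an adjusted p under 0.05, which all lie below 0, and the 27 rows named trim lie between -0.27 and 0.36.

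Among the finTRIM genes, ftr83 and ftr82 fell together. ftr83 (MSTRG.28365) was at 74.6, 48.2 and 48.2 FPKM in the libraries labelled hypoxia, against 132, 113 and 150 FPKM in those labelled control. Its groups did not overlap, and hypoxia replicate 1 was the highest of its group. The means were 57.0 ± 15.2 and 132 ± 18.2 FPKM (SD, n = 3 each), 2.31-fold lower in the libraries labelled hypoxia, with a log2 change of -1.21 ± 0.21 SE and a limma adjusted p of 0.0289. ftr82 (MSTRG.28366) was at 9.13, 7.79 and 6.75 FPKM in the libraries labelled hypoxia and at 13.1, 17.4 and 15.9 FPKM in those labelled control, again without overlap. It was 1.96-fold lower, with a log2 change of -0.89 ± 0.16 SE and an adjusted p of 0.0316. The call of ftr83 was lost without any 1 library other than hypoxia replicate 1 (adjusted p = 0.0593 to 0.102), and that of ftr82 without any 1 library other than control replicate 1 (adjusted p = 0.0631 to 0.102).

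The 2 loci have consecutive numbers in the table, and RefSeq's annotation of the assembly O_niloticus_UMD_NMBU also has ftr83 next to ftr82, with ruvbl2 on one side and atp5l on the other. The flanking loci were chosen for their position after the values of the pair were seen. ruvbl2, an ATPase of chromatin remodelling complexes, was at 9.34, 9.13 and 9.91 FPKM in the libraries labelled hypoxia and at 8.15, 11.3 and 9.63 FPKM in those labelled control. Its log2 change was -0.02, with a 95% interval of -0.36 to 0.31. atp5l, a subunit of ATP synthase, was at 116.9 ± 5.90 FPKM in the libraries labelled hypoxia and 115 ± 1.74 FPKM in those labelled control (SD, n = 3 each), with a log2 change of 0.02 and an interval of -0.19 to 0.22. The intervals of ruvbl2 and atp5l thus leave out a fall of the size seen in ftr83 or ftr82. The level of ftr83 was 8.17, 6.20 and 7.13 times that of ftr82 in the libraries labelled hypoxia and 10.0, 6.52 and 9.40 times in those labelled control, and these ratios overlapped between the groups. Whether the 2 genes share reads was not tested.

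**Figure D3:**
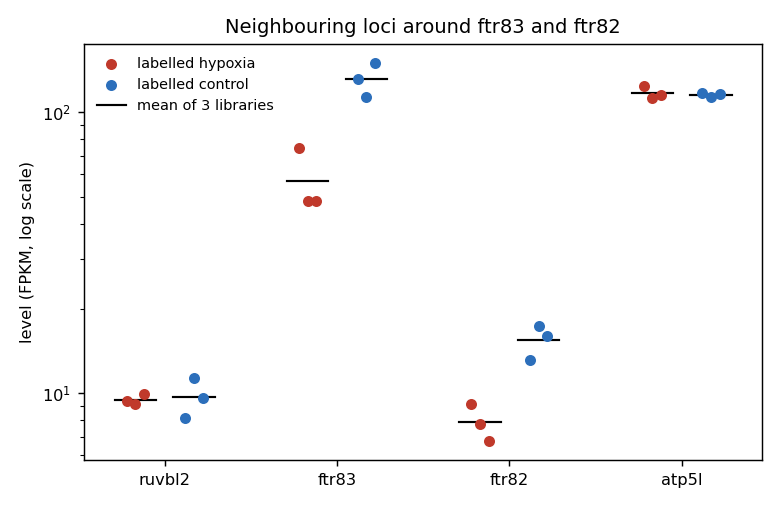
FPKM (log axis) of ruvbl2, ftr83, ftr82 and atp5l, which have consecutive locus numbers, in the 3 libraries labelled hypoxia (left of each pair) and the 3 labelled control (right), with bars at the means. ftr83 and ftr82 lie lower in all libraries labelled hypoxia, and the points of ruvbl2 and atp5l overlap.

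ftr86 had the largest change of the tested members. It was at 4.58, 5.71 and 3.89 FPKM in the libraries labelled hypoxia, against 17.87, 17.95 and 26.1 FPKM in those labelled control. Every library labelled hypoxia lay well below every library labelled control. The means were 4.73 ± 0.917 and 20.6 ± 4.71 FPKM (SD, n = 3 each), 4.36-fold lower, with a log2 change of -1.91 ± 0.20 SE and an adjusted p of 0.0117. Its call was lost without hypoxia replicate 1 (adjusted p = 0.0523) and kept without any other single library. The row (MSTRG.14687) holds 1 assembled transcript and none of Ensembl. The neighbouring locus NUDT8, named after its values were seen, also fell, to 9.05 ± 0.418 FPKM in the libraries labelled hypoxia against 13.9 ± 0.564 FPKM in those labelled control (log2 change -0.57 ± 0.10 SE, adjusted p = 0.0291). Whether reads of one locus enter the other was not tested.

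The other finTRIM rows differed among themselves in sign and size. ftr66 (MSTRG.11944) was at 3.19, 4.88 and 7.47 FPKM in the libraries labelled hypoxia and at 1.80, 1.69 and 1.93 FPKM in those labelled control, and the groups did not overlap. Its log2 change of 1.08 ± 0.26 SE did not pass (adjusted p = 0.0692). ftr14l (MSTRG.18277) was at 5.17, 6.10 and 3.15 FPKM in the libraries labelled hypoxia and at 8.61, 12.0 and 8.54 FPKM in those labelled control, also without overlap, with a log2 change of -0.90 ± 0.24 SE (adjusted p = 0.0835). Its other row (MSTRG.18278) had a mean of 0.67 FPKM and was not tested. That row went the other way, at 0.951 ± 0.620 FPKM in the libraries labelled hypoxia and 0.390 ± 0.281 FPKM in those labelled control, with overlapping groups. ftr87 had means of 6.78 and 6.85 FPKM, with an interval of -0.41 to 0.40 on the log2 scale, and ftr99 had means of 4.36 and 3.81 FPKM, with an interval of -0.55 to 0.87 (libraries labelled hypoxia and labelled control in each).

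**Figure D4:**
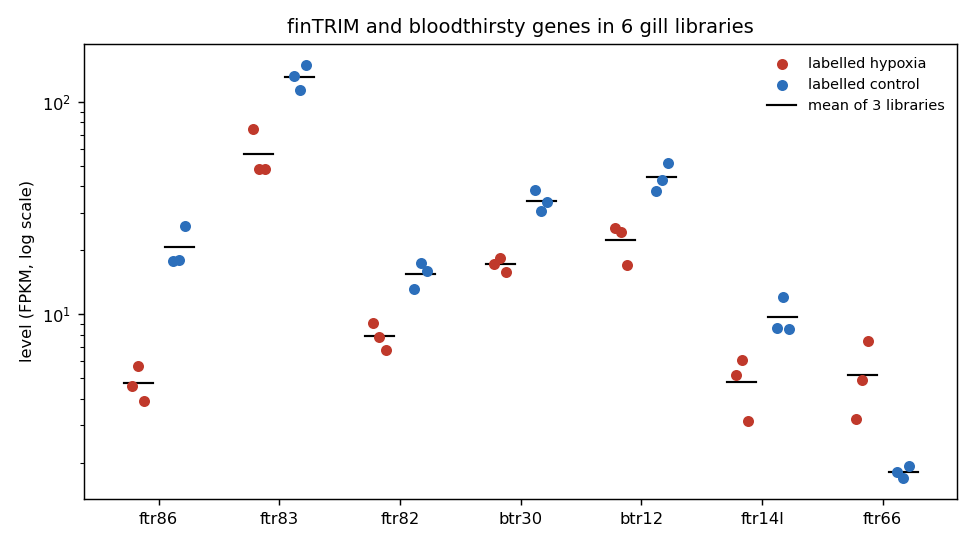
FPKM (log axis) of the 5 called finTRIM and bloodthirsty genes and of ftr14l and ftr66, which did not pass, in the 3 libraries labelled hypoxia (left of each pair) and the 3 labelled control (right), with bars at the means. The groups do not overlap in any of the 7 genes, and ftr66 is the one in which the libraries labelled hypoxia lie higher. These 7 have the smallest p of the tested members, so their lack of overlap is not a separate result. Of all tested rows, 33.2% had groups that lay apart.

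Of the bloodthirsty genes, btr30 and btr12 fell by similar amounts. btr30 (MSTRG.5998) was at 17.3, 18.4 and 15.8 FPKM in the libraries labelled hypoxia, against 38.3, 30.7 and 33.8 FPKM in those labelled control. The groups stood far apart with little spread in either, and the change was 2.00-fold downward (log2 change -0.96 ± 0.12 SE, adjusted p = 0.0159). btr12 (MSTRG.22301) was at 25.5, 24.3 and 16.99 FPKM in the libraries labelled hypoxia and at 38.2, 42.9 and 51.8 FPKM in those labelled control. It was 1.99-fold lower without overlap (log2 change -0.97 ± 0.19 SE, adjusted p = 0.0421). The call of btr30 was lost without hypoxia replicate 1 (adjusted p = 0.0652), hypoxia replicate 3 (0.0603) or control replicate 3 (0.0519), and that of btr12 without any 1 library (0.0637 to 0.116), without the filter on low values (0.0659) and after quantile normalization (0.0519). By locus number ZNF219 follows btr12 and nr1d1 follows btr30, and neither was called. In both, however, the groups did not overlap, as in 33.2% of all tested rows. RefSeq's annotation also has znf219 next to btr12, but it has btr30 between utp18 and ube2m, not next to nr1d1. ZNF219 was at 1.40 ± 0.310 FPKM in the libraries labelled hypoxia and 2.32 ± 0.117 FPKM in those labelled control (log2 change -0.47 ± 0.17 SE, adjusted p = 0.152). nr1d1 was at 4.70 ± 1.15 and 2.91 ± 0.322 FPKM in the same order (log2 change 0.53 ± 0.18 SE, adjusted p = 0.137).

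The other tested bloodthirsty genes had overlapping groups. btr01 (MSTRG.33184) had means of 9.10 ± 2.43 FPKM in the libraries labelled hypoxia and 11.2 ± 4.46 FPKM in those labelled control. btr02 had means of 9.36 ± 1.203 and 9.66 ± 1.26 FPKM in the same order (SD, n = 3 each), with an interval of -0.40 to 0.31 on the log2 scale. In a second btr01 row (MSTRG.33185), hypoxia replicate 1 and control replicate 1 were listed at 0. The 5 called rows made up 35.9%, 30.6% and 27.8% of the summed FPKM of all members in the libraries labelled hypoxia and 51.3%, 50.6% and 54.2% in those labelled control. These 5 rows were picked as lower in the same libraries, so their lower share there is not a separate result.

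Some markers of other cells also differed between the groups, and most of those called rose in the libraries labelled hypoxia, where these members fell. In whole gill, fewer cells of a type and less RNA per cell cannot be told apart. The leukocyte genes ptprc and coro1a rose, in a list of 3 tested rows (ptprc, coro1a and a row that did not pass) with a summed level of 228 to 241 FPKM in the libraries labelled hypoxia and 107 to 126 FPKM in those labelled control. Of the T and NK cell list 4 rows rose and 1 fell of 27 tested, of the B cell list 2 of 5 rose, of the macrophage and granulocyte list 1 of 9 rose (csf1ra), and of the endothelial list none of 5 and of the red cell list none of 2 were called (limma; 1 endothelial row and no red cell row had an unadjusted p under 0.05). The red cell list was uneven between libraries. Its sum was 68.9, 140 and 79.9 FPKM in the libraries labelled hypoxia and 203, 28.2 and 28.5 FPKM in those labelled control. The lack of a call thus does not show an even red cell content. Of 20 tested epithelial and ionocyte rows 1 rose (rhbg) and none fell, and 4 were higher and 2 lower at an unadjusted p under 0.05. Over all tested rows 3.46% were called higher and 3.30% lower, and 25.4% had an unadjusted p under 0.05. The largest change in that list, not called, was in the minor row of epcam (MSTRG.18717), at 1.18, 5.50 and 2.08 FPKM in the libraries labelled hypoxia and at 8.78, 15.9 and 13.2 FPKM in those labelled control (log2 change -1.92 ± 0.43 SE, adjusted p = 0.0575). The part of any of these cells in the changes of the TRIM family was not tested.

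None of the tested PRY-SPRY members with a trim name was called. trim25, which in mammals ubiquitinates the RNA sensor RIG-I, had a main row (MSTRG.13042) at 17.4, 20.7 and 19.5 FPKM in the libraries labelled hypoxia and at 15.8, 12.9 and 15.7 FPKM in those labelled control. The groups lay apart, but the log2 change of 0.36 ± 0.13 SE did not pass (adjusted p = 0.148, 95% interval 0.05 to 0.67). Its other rows were near 0, at 0.00889 to 0.239 FPKM (MSTRG.13043) and 0.189 to 1.11 FPKM (MSTRG.13044), and were not tested. The main row of trim35-28 (MSTRG.30018) was at 24.3 ± 1.23 FPKM in the libraries labelled hypoxia and 27.7 ± 0.85 FPKM in those labelled control (log2 change -0.18, adjusted p = 0.278). Its other row (MSTRG.30019) had the opposite sign, at 7.89 ± 2.93 and 5.76 ± 1.24 FPKM in the same order, with overlapping groups (log2 change 0.35, adjusted p = 0.512). trim65, which in mammals modifies the RNA sensor MDA5, had means of 1.35 and 1.53 FPKM, and trim62 of 8.32 and 9.17 FPKM (libraries labelled hypoxia and labelled control in each). Of the 16 PRY-SPRY rows with a trim name, 10 were tested, none was called with limma (6.77% of all tested rows were) and 1 had an unadjusted p under 0.05 (25.4% of all tested rows did).

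Within-group spread was wide for trim16, whose product lacks a RING finger. It was at 9.24, 12.4 and 19.6 FPKM in the libraries labelled hypoxia and at 7.95, 9.26 and 19.2 FPKM in those labelled control. Each group thus held 1 library near 19 FPKM, replicate 3 in both, and the interval of the change ran from -0.75 to 1.15 on the log2 scale. A locus of trim47 (MSTRG.11479) was listed at 0 in hypoxia replicate 2 and at up to 2.13 FPKM elsewhere.

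The PHD and bromodomain members, the TIF1 transcriptional cofactors, were all expressed and none passed. trim66 was at 20.1, 18.4 and 16.5 FPKM in the libraries labelled hypoxia and at 17.03, 13.8 and 13.3 FPKM in those labelled control (log2 change 0.30 ± 0.14 SE, adjusted p = 0.236). trim33, known in zebrafish from the moonshine mutant that lacks red blood cells, was at 8.25 ± 0.649 FPKM in the libraries labelled hypoxia and 7.34 ± 1.06 FPKM in those labelled control (interval -0.18 to 0.49). trim24 was at 5.36 ± 1.60 and 4.90 ± 0.302 FPKM in the same order (interval -0.45 to 0.60), and the sign of its change of 0.07 flipped on the TPM scale, to -0.01. In all 3 the groups overlapped.

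Members with NHL repeats, a domain that binds RNA or protein, were of low or moderate level. trim2a was at 4.31, 6.28 and 4.58 FPKM in the libraries labelled hypoxia and at 11.3, 4.37 and 4.45 FPKM in those labelled control. The high value of control replicate 1 set the sign of its change, which was -0.25 with all libraries and 0.15 without that one. trim3a had means of 2.13 and 1.51 FPKM, trim32 of 1.93 and 2.00 FPKM, and the tested row of trim3b (MSTRG.11481) of 1.12 and 0.949 FPKM (libraries labelled hypoxia and labelled control in each). Their groups overlapped and their adjusted p-values were 0.394 to 0.922. The other trim3b row (MSTRG.11482), trim2b and trim71, the vertebrate lin-41 gene of early development, did not exceed 0.458 FPKM in any library and were not tested.

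The muscle RING finger genes trim54, trim55a, trim55b and trim63a, whose products sit at the sarcomere, were scarce in gill. trim55a, the best expressed of these, was at 1.09, 1.50 and 1.33 FPKM in the libraries labelled hypoxia and at 1.21, 1.52 and 0.75 FPKM in those labelled control (adjusted p = 0.80). trim55b was at 0.215, 0.298 and 0.254 FPKM in the libraries labelled hypoxia and at 0.167, 0.0714 and 0.0472 FPKM in those labelled control, without overlap but below the filter. trim54 ranged over 0.336 to 0.409 FPKM in the libraries labelled hypoxia and 0.0988 to 0.632 FPKM in those labelled control. trim63a was listed at 0 in 5 libraries. trim101, placed in the same list, was at 0.759, 4.02 and 5.54 FPKM in the libraries labelled hypoxia and at 0.671, 2.37 and 4.32 FPKM in those labelled control. This spread within groups left an interval of -1.21 to 1.85, and the values rose with the replicate number in both groups. Beside them, 9 of 25 tested skeletal muscle rows rose and none fell, such as tcap at 31.97 and 8.38 FPKM (means of the libraries labelled hypoxia and labelled control). In that list 23 rows had a positive change (median 0.83). Of all tested rows 3.46% were called higher and 3.30% lower, and 54.3% had a positive change. The summed muscle list, led by myoglobin, was 1918 to 2301 FPKM in the libraries labelled hypoxia and 1761 to 2442 FPKM in those labelled control.

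Of the remaining members, trim44, which has no RING finger, was the steadiest in the libraries labelled hypoxia. It was at 16.3, 16.1 and 16.5 FPKM there and at 10.8, 13.5 and 13.7 FPKM in the libraries labelled control. The groups did not overlap, and the log2 change of 0.35 ± 0.12 SE did not pass (adjusted p = 0.142). The rows of trim8b, in mammals a regulator of cytokine signalling, were at 18.9 and 19.6 FPKM (MSTRG.5234) and at 2.52 and 2.86 FPKM (MSTRG.4394), and the endoplasmic reticulum ligase gene trim13 was at 4.55 and 4.33 FPKM (means of the libraries labelled hypoxia and labelled control in each). trim23, with an ARF domain, had means of 3.55 and 3.58 FPKM, and trim37, with a MATH domain, of 3.43 and 2.61 FPKM in its tested row, in the same order. The other trim37 row (MSTRG.17639), which holds an Ensembl transcript, was not tested. It was lower in the libraries labelled hypoxia, at 0.722 to 0.963 FPKM against 1.00 to 1.25 FPKM in those labelled control. Of the COS box genes, which act on microtubules, 6 of 7 rows were not tested. One of these untested rows, trim46b, was at 0.566, 0.685 and 0.802 FPKM in the libraries labelled hypoxia and at 0.319, 0.322 and 0.248 FPKM in those labelled control. Among all untested members the groups lay apart in 5, as they did in 33.2% of all tested rows. trim46b and trim55b were higher in the libraries labelled hypoxia, and trim37 (MSTRG.17639), trim47 (MSTRG.11480) and trim9 were lower. Of the family members under other names, mid2 was at 4.74 ± 0.253 FPKM in the libraries labelled hypoxia and 7.19 ± 1.50 FPKM in those labelled control (log2 change -0.50 ± 0.17 SE, adjusted p = 0.132), and both tested rows of mid1 had overlapping groups.

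In the same libraries, some genes of antiviral sensing and interferon signalling rose. Of 29 tested rows of that list 10 rose and none fell, beside 3.46% of all tested rows called higher, and the list median was 0.52 beside 0.05 over all rows. The other 19 did not pass, and 6 of the 29 had a negative change. At an unadjusted limma p under 0.05, 16 were higher and 1 lower, a level that 25.4% of all tested rows passed. The antiviral enzyme gene rsad2 (MSTRG.20063) was at 67.2, 102 and 118 FPKM in the libraries labelled hypoxia and at 21.2, 15.6 and 23.9 FPKM in those labelled control (log2 change 2.17 ± 0.25 SE, adjusted p = 0.0139). All libraries labelled hypoxia lay above all those labelled control. The transcription factor genes irf3, irf9 and stat1a had log2 changes of 1.62 ± 0.20, 0.83 ± 0.11 and 1.33 ± 0.20 SE, and usp18, which removes the modifier ISG15, of 2.14 ± 0.28 SE. dhx58, a RIG-I-like receptor gene, and traf3, a signalling ligase of the RIG-I-like receptor pathway, rose by 1.08 and 0.56 on the log2 scale. stat2, irf1a and isg15 (MSTRG.17902) completed the 10. Other members did not pass, among them the kinases tbk1 and ikbke (log2 changes of 0.23 and 0.04) and the transcription factors irf7 (0.50, with overlapping groups), irf1b (-0.15), rela (0.23), NFKB1 (0.46) and nfkb2 (0.52). The number of list rows that rose was 2 without hypoxia replicate 1, hypoxia replicate 3 or control replicate 3, 1 without control replicate 2 and 5 without control replicate 1. This list was put together with results of these libraries known and is not independent evidence of its direction.

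**Figure D5:**
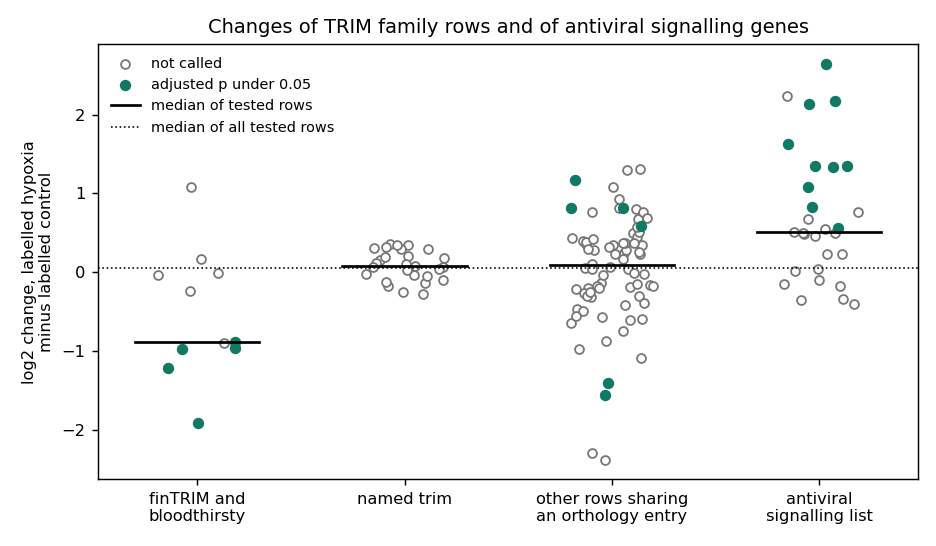
Log2 change (labelled hypoxia minus labelled control) of each tested row in 4 sets: finTRIM and bloodthirsty genes, genes named trim, other rows that share a KEGG orthology entry with members, and the antiviral signalling list. Filled points have an adjusted p under 0.05, solid bars are medians and the dotted line is the median of all tested rows (0.05); the medians of the first and last sets are -0.89 and 0.52.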

How the data were processed

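The table holds 1 FPKM column per library over 40538 rows. The deposited values are FPKM. The submitters' processing notes name HISAT and StringTie without versions, and the build and annotation are not given there. No gene positions are reported. Assembled loci can merge or split genes. FPKM is not a count, so limma 3.58.1 in R 4.3.3 (lmFit, eBayes with a mean-variance trend, two-sided) was run on log2(FPKM + 1), which understates the change of low genes, on the 25111 rows whose mean reached 1 FPKM, with Benjamini-Hochberg adjustment over these at 0.05. Every adjusted p is from this test unless another setting is named beside it. Differences and folds are labelled hypoxia against labelled control. The fit was run on simulated data drawn as independent normal values with the mean and spread of each row. Such data cannot show whether these libraries were pooled, paired or shared a batch. Sequencing depth is unknown, so precision is the spread over 3 libraries. The members and lists were chosen with earlier results of these data known. Of the 44 antiviral symbols, those found gave 30 rows. The text names all called members, the 5 next by p, the 5 with the highest mean, all trim25, PHD and bromodomain, muscle RING finger and NHL rows, and 5 called antiviral genes; the others were named after their values were seen. Subfamilies follow the C-terminal domains known in mammals. The alternatives were another pseudocount (0.1), other filters, TPM, median-of-ratios and quantile scaling, robust empirical Bayes, library weights, a replicate block and each library left out.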

Additional observations from a re-analysis of the deposited data

How the results depend on the processing

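Over 15 alternatives, ftr86 kept its call in 13, btr30 in 11, ftr83 and ftr82 in 9 each and btr12 in 6, and all 5 kept a negative change. With any 1 library left out, 1 to 3 members were lower, 1 to 9 antiviral rows higher, and 104 to 783 rows of the table higher and 151 to 792 lower. Without the filter 519 rows were higher and 539 lower, and with library weights 1412 and 1289. Library weights also called ftr14l (adjusted p = 0.0495). With the replicate number as a block (replicate block), 0 members were lower, 0 antiviral rows higher, and 0 rows of the table higher and 2 lower. Deviations from the group means correlated at -0.06, -0.04 and -0.12 between same-numbered libraries and at -0.02 to 0.08 between differently numbered ones. These values over all rows cannot decide whether the numbers pair the samples, because single rows, such as trim16 and trim101, can still follow the number. The labels do not say whether the numbers pair samples.

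Alternatives were run over the whole table, but single changes were listed only for the members the naming rule takes. They were not listed for the other uncalled members, several of which have changes near 0. Among those listed, the sign changed for 6 uncalled rows. trim24 had a log2 change of -0.0112 on the TPM scale, trim101 of -0.0962 and trim32 of 0.000945 with library weights. With any 1 library left out, the change ranged from -0.0447 to 0.305 for trim24, from -0.132 to 0.883 for trim101, from -0.104 to 0.0404 for trim32, from -0.162 to 0.0611 for trim8b (MSTRG.5234), from -0.451 to 0.1497 for trim2a and from -0.0346 to 0.227 for trim55a. The cause was not tested. Scaling moved the median of all rows by less than 0.1 on the log2 scale (0.05 as deposited, -0.03 on the TPM scale).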

Other observations

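Outside the members, 118 rows share a KEGG orthology entry with the finTRIM, bloodthirsty and PRY-SPRY members (K10652, K10651 or K12803 in the table's own annotation), most of them named by an Ensembl identifier. The entry alone does not make a row a TRIM gene: the set also holds rnf168 and lonrf1l, RING finger genes outside the family, and bspry. This set was chosen after the data were seen. Of its 76 tested rows 4 rose and 2 fell, beside 3.46% and 3.30% of all tested rows. The median was 0.09. A row with the entry of ftr83, MSTRG.14495, was at 23.4, 20.6 and 17.7 FPKM in the libraries labelled hypoxia and at 49.5, 53.99 and 64.8 FPKM in those labelled control (log2 change -1.40 ± 0.15 SE, adjusted p = 0.0125). With the same entry, MSTRG.30111 was at 25.2, 22.4 and 25.02 FPKM in the libraries labelled hypoxia and at 11.3, 10.7 and 8.70 FPKM in those labelled control (log2 change 1.17 ± 0.13 SE, adjusted p = 0.0125). The other rows that rose were MSTRG.7884, MSTRG.32100 and a row whose name merges 2 genes (MSTRG.21054), and the other row that fell was MSTRG.3901, at 0.969 ± 0.378 FPKM in the libraries labelled hypoxia and 4.85 ± 1.36 FPKM in those labelled control (SD, n = 3 each). Rows of this set with the entry K12803 had a median of -0.25 and those with K10652 a median of 0.35, as a description with no test.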
